A study of Mus musculus with 18 samples.

Results

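The day 1 to day 3 interval of an induced change of cell identity was examined in fibroblasts that carried a control siRNA. The comparison used 6 of the 18 libraries of the series, 3 from each day, and every one of the 24514 genes in the count table, of which 13802 had enough counts to be tested. The libraries were taken by their labels, and no measured value entered the choice. All libraries come from a line of mouse embryonic fibroblasts named iMGT-Myh6-eGFP-MEF. It makes 3 transcription factors, Mef2c, Gata4 and Tbx5, under doxycycline, and its green fluorescent reporter is driven by the heart gene Myh6. Both groups had been transfected with the control siRNA (siControl) on the day before day 0, and both had been given doxycycline at 1 µg/mL from day 0 onward. The 2 groups thus share the line, the control siRNA, the drug and the delivered factors, and they differ in the day of harvest. Wells had been seeded with 1000 cells, and 40 wells were pooled into each library. The labels name the 3 libraries of a day biological replicates, without saying what was separate between them. Cells without doxycycline were not followed over these days in the samples used here, so time in culture, time since transfection and the action of the factors cannot be told apart.

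Mef2c, Gata4 and Tbx5 act together in the developing heart, and their forced expression can give fibroblasts features of heart muscle cells. Contraction in heart muscle depends on the sarcomere, in which thin filaments of actin, tropomyosin and troponin slide along thick filaments of myosin, Z-discs anchor the thin filaments, and titin with the M-band holds the thick filaments in register. Fibroblasts are known for secreting collagen-rich matrix and for dividing readily in culture.

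Total counts ran from 34467618 to 36188373 at day 1 and from 33129954 to 43905193 at day 3. Levels are given as CPM, counts set against the size of their library, with library totals scaled by the trimmed mean of M-values (TMM), with the 3 libraries of a day in replicate order, and log2 fold changes (log2FC) are day 3 over day 1 with a standard error (SE) after the ± sign. Genes were called with edgeR's quasi-likelihood F-test at a Benjamini-Hochberg adjusted p under 0.05, and every adjusted p below comes from that test unless DESeq2 is named. Replicate libraries differed by more than counting noise, by a chi-square of 2.93 to 4.07 for each degree of freedom in the siControl pairs of days 1 and 3. Rn45s, the precursor of ribosomal RNA that poly-A selection should remove, took 0.249% to 0.278% of the counts at day 1 and 0.399% to 0.542% at day 3, and its part in the results was not tested. Vim and Col1a1, an intermediate filament and a fibrillar collagen gene of mesenchymal cells, stood between 9179 and 9359 CPM and between 2184 and 2407 CPM at day 1. The fibroblast genes Dcn, Col3a1 and Fap were far lower at that day, with values given below. Of 34 listed genes of fibroblast identity, 6 had too few counts to be tested. Chst7, the sulfotransferase gene that the siRNA of the other arm targets, was measured at 40.4, 37.2 and 35.3 CPM at day 1 and 25.6, 23.8 and 25.95 CPM at day 3 in siControl. Its group means in the siChst7 arm were 0.755 CPM at day 1 and 2.16 CPM at day 3. Counts do not separate a smaller share of cells that express a gene from less of its RNA per cell, which holds for every result below.

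Between day 1 and day 3, 7612 of 13802 tested genes (55.2%) were called, 3150 higher (22.8%) and 4462 lower (32.3%). The rises reached further than the falls. By 2-fold or more, 874 genes rose (6.33%) and 275 fell (1.99%), and by 16-fold or more, 75 rose and 16 fell. The 2-fold counts were 298 and 92 among genes with a mean of at least 5 CPM, and 1078 and 179 with library totals alone. Changes under 1.5-fold made up 3609 of the 4462 falls and 1699 of the 3150 rises. The values of the 2 days did not overlap for 9059 genes (65.6%). The biological coefficient of variation between replicates was 5.75% over all 18 libraries. The balance of small changes depended on how libraries were scaled and on which libraries and genes were fitted. The median log2FC over all tested genes was -0.047 with TMM over all 18 libraries, 0.011 with DESeq2's size factors and 0.099 with library totals alone, a shift of up to 0.146. The share of calls that were rises went from 41.4% to 50.4% and 65.0% (3150 against 4462, 3749 against 3683, and 4833 against 2599). With TMM over the 6 compared libraries alone the median was 0.011, and 50.3% of calls were rises (4224 against 4173). Results given below as with TMM come from the fit to all 18 libraries. Lists of genes whose direction turned with the scaling are named as such below.

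**Figure D1:**
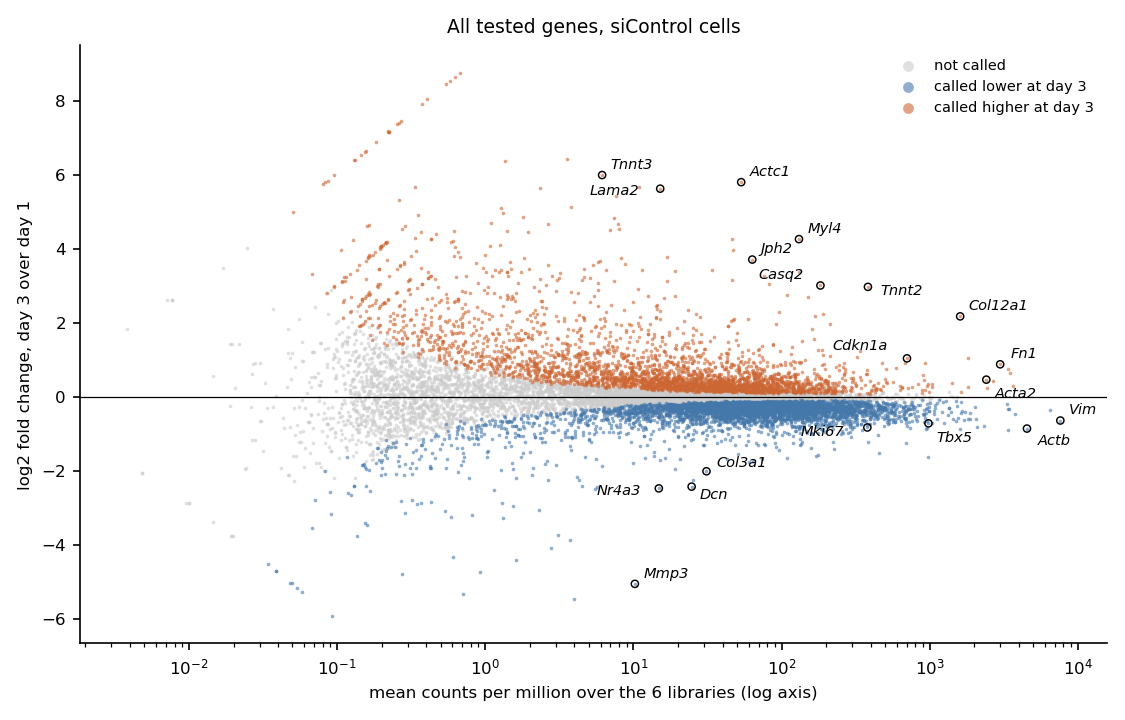
Log2 fold change of every tested gene with counts in these libraries (vertical axis) against its mean CPM over the 6 libraries (horizontal log axis), coloured by call. Contractile genes such as Actc1 and Tnnt3 lie near a log2FC of 6, and Mmp3 lies near -5. Of the abundant genes at the right, Vim and Actb lie between 0 and -1, and Fn1 and Acta2 lie above 0.

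The delivered factors themselves fell over these days. Tbx5 was measured at 1249, 1200 and 1208 CPM at day 1 and 745, 740.1 and 746 CPM at day 3, a log2FC of -0.71 ± 0.048 (adjusted p = 2.86e-11). Mef2c went from 531, 524 and 514 CPM to 326, 321 and 319.6 CPM, and Gata4 from 745, 717 and 696 CPM to 463, 448 and 440.1 CPM. All 3 lay lower in every day 3 library than in any day 1 library, at log2FCs of -0.70 ± 0.047 for Mef2c and -0.67 ± 0.051 for Gata4, and all 3 stayed above their day 0 means of 137, 47.1 and 80.3 CPM for Tbx5, Mef2c and Gata4. The counts do not separate the delivered copies from the cells' own genes.

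Most thin filament genes rose, among them the cardiac actin and troponin genes. Of 19 tested members of the thin filament list, 13 rose and 4 fell, with a median log2FC of 1.78 beside -0.047 for all tested genes. Tnnt2, which encodes the troponin T of heart muscle and anchors the troponin complex to tropomyosin, had the highest level per kilobase among the risers of the list, and its CPM values were 84.4, 89.6 and 84.6 CPM at day 1 and 703, 654 and 683 CPM at day 3. That is 7.88-fold (log2FC 2.98 ± 0.072, adjusted p = 1.2e-18), and the 2 days lay far apart. Actc1, the cardiac alpha-actin gene, was nearly silent at day 1 with 1.78, 1.35 and 2.47 CPM and reached 109, 94.96 and 111 CPM, a rise of 56.2-fold (log2FC 5.81 ± 0.18, adjusted p = 7.99e-17). Acta1, its skeletal muscle counterpart, was already present at day 1 and went from 17.5, 18.5 and 17.4 CPM to 73.8, 70.3 and 76.2 CPM (log2FC 2.05 ± 0.095). Tnnc1, the calcium-binding troponin C of heart and slow skeletal muscle, went from 22.3, 25.4 and 20.9 CPM to 235, 234 and 245 CPM (log2FC 3.38 ± 0.13).

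The inhibitory troponin I genes stayed scarce. Tnni3, the adult heart form, had 0 counts in all 3 day 1 libraries and 1.19, 1.36 and 1.49 CPM at day 3, 171 counts in all, which is at least 46.3-fold higher against a limit of 3 counts over the day 1 group (adjusted p = 3.85e-07). Tnni1, the slow skeletal form that the embryonic heart also uses, went from 0.301, 0.144 and 0.233 CPM to 1.13, 0.572 and 0.666 CPM (log2FC 1.78 ± 0.44). Per kilobase of gene length, the 3 troponin I genes together reached 2.55 to 3.13 CPM at day 3, against 532 to 574 CPM for the troponin T genes and 335 to 352 CPM for the troponin C genes. Troponin I RNA was thus far below that of its partners. Tnnt3, the troponin T of fast skeletal muscle, rose from 0.0301, 0.345 and 0.175 CPM to 14.03, 10.5 and 11.8 CPM (64.2-fold), while Tnnt2 still made up 97.8% to 98.2% of the length-corrected troponin T level. The tropomyosins, which lie along actin and gate myosin binding, were already abundant and moved little: Tpm3 (log2FC -0.46 ± 0.053) and Tpm4 (-0.41 ± 0.068) fell and Tpm2 rose (0.46 ± 0.061). Tpm1 fell with TMM (log2FC -0.18 ± 0.038), a call that was lost with library totals alone (log2FC -0.036, adjusted p = 0.515). Neb, the giant ruler protein of skeletal thin filaments, was not called, at 6.53, 4.71 and 6.11 CPM at day 1 and 6.58, 5.34 and 5.56 CPM at day 3.

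Thick filament genes split by class: atrial light chains and myosin-binding proteins rose, and the 2 heart heavy chains did not. The 20 listed genes summed to between 35.8 and 39.6 CPM at day 1 and between 340 and 376 CPM at day 3. Myl4, the essential light chain of the atria and of the embryonic heart, held most of the day 3 sum, with 14.9, 12.6 and 11.2 CPM at day 1 and 246, 236 and 266 CPM at day 3 (log2FC 4.27 ± 0.12, adjusted p = 1.43e-17). Myl7, the regulatory light chain of the atria, went from 17.2, 16.2 and 21.2 CPM to 65.2, 66.8 and 73.8 CPM (log2FC 1.92 ± 0.16). Mybpc3, the cardiac myosin-binding protein C, rose from 0.632, 0.632 and 0.698 CPM to 15.2, 15.01 and 15.4 CPM (log2FC 4.53 ± 0.16), and its relative Mybph from 0.632, 0.488 and 0.669 CPM to 14.5, 15.9 and 15.5 CPM (log2FC 4.67 ± 0.14). For each of these 4 genes the lowest day 3 library lay above the highest day 1 library.

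Myh6, the heavy chain gene whose promoter drives the line's reporter, went the other way. It was measured at 2.83, 2.73 and 3.02 CPM at day 1 and 1.47, 1.34 and 1.47 CPM at day 3, a fall of 2.01-fold (log2FC -1.01 ± 0.18, adjusted p = 5.67e-05), and the days did not overlap. Its day 0 mean was 1.01 CPM. Myh7, the other heart heavy chain, was at 1.39, 1.09 and 1.22 CPM at day 1 and 0.819, 0.657 and 0.712 CPM at day 3 (log2FC -0.76 ± 0.30, adjusted p = 0.0373), and its call was lost with DESeq2 (adjusted p = 0.0573) and with all 4 other settings that rescale the libraries or keep low genes (0.0556 to 0.0934), and without single libraries (0.0708 to 0.115). The ventricular light chain gene Myl2 had 0, 0 and 0.0582 CPM at day 1 and 0.113, 0.382 and 0.115 CPM at day 3, and its call was lost without single libraries (adjusted p = 0.0609 to 0.127). Myl3, the other ventricular light chain, had 0 counts in all 6 libraries. Myh1, a heavy chain of fast skeletal muscle, was at 0.0602, 0 and 0.0291 CPM at day 1 and 0.452, 0.318 and 0.299 CPM at day 3. Of the 20 thick filament genes 11 were tested, of which 6 rose and 2 fell (median log2FC 1.92).

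**Figure D2:**
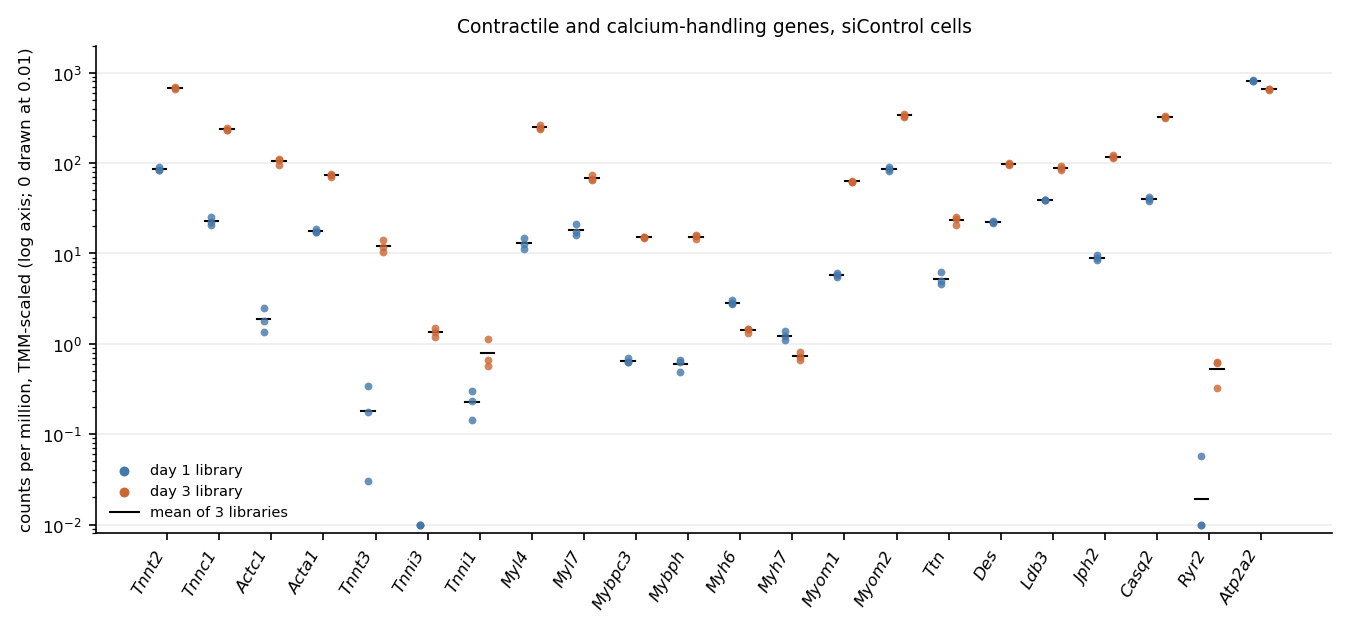
CPM of 22 contractile and calcium-handling genes in each siControl library (log axis, points are libraries, bars are means of 3, zeros drawn at 0.01). Most genes sit higher at day 3 than at day 1 with no overlap, while Myh6, Myh7 and Atp2a2 sit lower, and Tnni3 is at 0 in all 3 day 1 libraries.

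Striated muscle forms took a larger share of all actins and of all myosin light chains, corrected for gene length, but not of the heavy chains or alpha-actinins. Over all such families 22 of 40 tested genes rose and 10 fell (median log2FC 0.564). The striated actins Acta1 and Actc1 went from 0.231%, 0.245% and 0.250% of all actin to 3.28%, 3.06% and 3.32%. Acta2, the smooth muscle actin that activated fibroblasts also make, held 15.0% to 15.1% at day 1 and 29.3% to 29.8% at day 3, and Actb, the cytoskeletal beta-actin, fell from 58.2% to 58.5% down to 45.5% to 45.9%. Striated light chains went from 2.43%, 2.23% and 2.64% of all light chain to 15.5%, 15.6% and 17.1%. The striated heavy chains held 0.123%, 0.117% and 0.131% at day 1 and 0.109%, 0.105% and 0.0949% at day 3, and Myh9, the non-muscle heavy chain, still held 78.7% to 79.1% of the family. Striated alpha-actinins stayed under 0.1% of theirs. Light chain and heavy chain RNA of muscle type were therefore far out of proportion at day 3, with 384 to 429 CPM per kilobase of striated light chain and 0.488 to 0.568 CPM per kilobase of striated heavy chain.

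**Figure D3:**
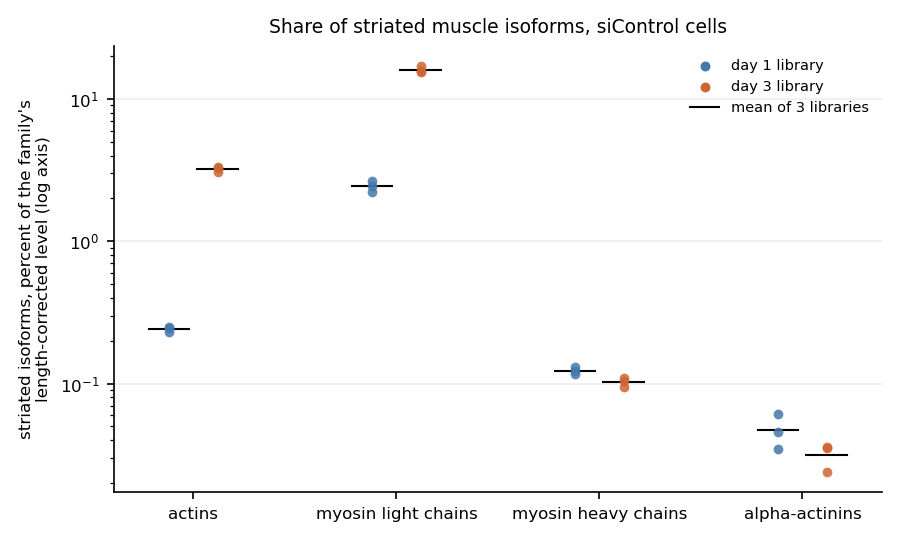
Striated muscle members as a percent of the length-corrected level of 4 protein families in each siControl library (log axis, points are libraries, bars are means of 3). Actins rise from at most 0.250% to at least 3.06% and light chains from at most 2.64% to at least 15.5%, while heavy chains are lower at day 3 and alpha-actinins overlap between days.

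Z-disc and costamere genes went both ways, with 14 of 25 tested genes higher and 8 lower (median log2FC 0.467). Des, the muscle intermediate filament desmin, went from 23, 21.9 and 22.4 CPM to 94.2, 99.01 and 96.9 CPM (log2FC 2.11 ± 0.081, adjusted p = 2.96e-15). Ldb3, the Z-disc protein also called Cypher, was at 39.5, 38.7 and 38.9 CPM at day 1 and 92.8, 84.3 and 88.7 CPM at day 3 (log2FC 1.18 ± 0.054), and Pdlim3, an alpha-actinin partner, rose from 3.37, 3.48 and 3.46 CPM to 32.7, 27.96 and 30.97 CPM. Smpx, a small muscle protein linked to stretch, rose from 0.692, 0.632 and 0.407 CPM to 12.4, 12.8 and 14.6 CPM (log2FC 4.52 ± 0.25). Murc, a caveolar protein of muscle also named Cavin4, fell from 75.2, 78.4 and 75.02 CPM to 26.1, 27.8 and 24.7 CPM (log2FC -1.54 ± 0.076), and Pdlim5 fell by 0.73 on the log2 scale. Actn2, the alpha-actinin of heart Z-discs, was close to absent, at 0, 0.0287 and 0 CPM and 0.113, 0 and 0 CPM.

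All 9 tested titin and M-band genes rose, with a median log2FC of 3.44. Myom1 and Myom2 encode myomesins, which cross-link thick filaments at the M-band. Myom1 was at 6.08, 5.43 and 5.76 CPM at day 1 and 62.1, 61.9 and 63.9 CPM at day 3 (log2FC 3.44 ± 0.081, adjusted p = 8.49e-19), and Myom2, already abundant at day 1, went from 86.3, 91.4 and 81.5 CPM to 333, 353 and 326 CPM (log2FC 1.97 ± 0.066). Ttn, which encodes titin, went from 6.23, 4.597 and 5.001 CPM to 25.4, 20.6 and 24.1 CPM. Unc45b, a chaperone for folding muscle myosin, rose from 0.1204, 0.2299 and 0.116 CPM to 1.64, 1.63 and 2.04 CPM (log2FC 3.48 ± 0.42). In each of the 4 genes the days did not overlap.

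Some of the rising sarcomere genes carried, within 250 bases before a RefSeq start, a CArG box, the sequence bound by serum response factor, or a MEF2 box, bound by the family of the delivered Mef2c. Those of 6 of the genes whose values are given above are shown. Ldb3 also held a CArG box and Myh1 a MEF2 box, which are not shown. The MEF2 boxes are given since 1 of the delivered factors belongs to that family, and the CArG boxes beside them. Each line gives 25 bases on either side, read 5′ to 3′ along the gene in GRCm38.p6, with the box in capitals.
Actc1 (CArG, chr2:114052888-114052947, minus strand, 47 bases before the start): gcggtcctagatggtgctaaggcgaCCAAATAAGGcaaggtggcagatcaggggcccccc
Acta1 (CArG, chr8:123894814-123894873, minus strand, 73 bases before the start): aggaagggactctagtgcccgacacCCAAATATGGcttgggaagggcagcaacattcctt
Myl7 (CArG, chr11:5898809-5898868, minus strand, 61 bases before the start): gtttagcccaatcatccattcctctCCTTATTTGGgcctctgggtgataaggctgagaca
Myom1 (CArG, chr17:71019433-71019492, plus strand, 99 bases before the start): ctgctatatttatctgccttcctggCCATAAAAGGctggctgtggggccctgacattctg
Mybpc3 (MEF2, chr2:91118029-91118088, plus strand, 90 bases before the start): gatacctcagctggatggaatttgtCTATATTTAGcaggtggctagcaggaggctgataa
Ttn (MEF2, chr2:76982679-76982738, minus strand, 166 bases before the start): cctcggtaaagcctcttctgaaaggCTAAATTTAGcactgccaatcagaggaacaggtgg
A promoter window was at hand for 33 of the 42 genes of the sarcomere lists called higher and for 10511 of 13802 tested genes (76.2%). With fewer than 80% of genes covered, a comparison of shares is void, and the shares stand as descriptions. A gene with several starts counted if any of its windows held the box. Searched on both strands, a MEF2 box stood before 7 of the 33 genes (21.2%) and 203 of the 10511 (1.93%), and a CArG box before 6 (18.2%) and 157 (1.49%). Both kinds of box were searched independently, and the letters of the 2 patterns do not allow a CArG box to overlap a MEF2 box. Actc1, Acta1, Myl7, Mybpc3, Ttn and Myom1 lie at chr2:114047282-114052875, chr8:123891758-123894775, chr11:5896637-5898782, chr2:91118114-91136516, chr2:76703980-76982557 and chr17:71003332-71126856 in that order. The Mybpc3, Ttn and Myom1 windows each belong to a RefSeq start inside the span of the gene. A match says that these letters are in the window, and binding was not measured.

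Calcium handling changed unevenly, with junction and storage genes high and the pump lower. Of 18 tested genes 10 rose and 5 fell (median log2FC 0.814). Jph2, which ties the calcium store to the cell surface, was at 8.82, 8.51 and 9.57 CPM at day 1 and 122, 115 and 117 CPM at day 3 (log2FC 3.72 ± 0.078, adjusted p = 1.86e-19), a rise of 13.2-fold. Casq2, the cardiac calcium-storage protein calsequestrin, went from 42.6, 38.3 and 39.9 CPM to 324, 318 and 336 CPM (8.1-fold, log2FC 3.02 ± 0.072). Ryr2, the cardiac release channel, had 2 counts in all at day 1 and 66 at day 3, at 0.621, 0.636 and 0.321 CPM in the 3 libraries. Srl, which encodes sarcalumenin of the calcium store, rose from 5.03, 5.03 and 5.99 CPM to 16.1, 15.8 and 17.4 CPM. Atp2a2, the pump that refills the store in heart and in most other cells, fell from 813, 818 and 824 CPM to 664, 651 and 653 CPM (log2FC -0.32 ± 0.047), and Asph and Camk2d fell as well (log2FCs of -0.75 ± 0.043 and -0.38 ± 0.043). Pln and Sln, the inhibitors of the pump, were at or below 0.144 CPM in every library, too low to be tested. Casq2 RNA thus stood beside a release channel and pump inhibitors near the limit of counting.

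Of 17 tested ion channel and connexin genes 8 rose and 1 fell (median log2FC 0.359). Hcn4, the pacemaker channel, went from 0.723, 0.805 and 0.6397 CPM to 5.62, 4.56 and 5.69 CPM (log2FC 2.87 ± 0.26), and Kcnh2, a repolarizing potassium channel, from 3.94, 3.97 and 3.43 CPM to 6.63, 6.74 and 7.62 CPM. Gja1, the main ventricular connexin and also a fibroblast gene, rose by 0.36 ± 0.045 on the log2 scale. Cacna1c, the pore of the L-type calcium channel, fell with TMM (log2FC -0.28 ± 0.064) and was not called with library totals alone (log2FC -0.13, adjusted p = 0.101).

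The cells' own cardiac transcription regulators did not move as a group: of 16 tested 4 rose and 7 fell, with a median log2FC of -0.018 that turned to 0.13 with library totals alone. Srf, the factor that binds CArG boxes, was at 214, 210.0 and 208 CPM at day 1 and 125, 125 and 131 CPM at day 3 and fell (log2FC -0.73 ± 0.048, adjusted p = 2.38e-11), as did Tead1 (-0.63 ± 0.047) and Tbx3 (-0.36 ± 0.054). Hopx, a regulator of maturing heart cells, rose from 0.181, 0.115 and 0.349 CPM to 2.34, 2.08 and 2.64 CPM, and Hey2, a Notch target of the ventricle, from 0.903, 0.805 and 1.11 CPM to 1.98, 2.86 and 2.25 CPM. Mef2d, a relative of the delivered Mef2c, was measured at 67.9, 69.5 and 63.4 CPM at day 1 and 71.2, 65.4 and 62.6 CPM at day 3 and was not called. Another 9 listed regulators had too few counts to be tested.

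Most hormone and energy-buffering genes of muscle rose, with median log2FCs of 1.62 and 1.61. Of 7 tested genes of natriuretic peptides and their receptors and related hormones, 6 rose: Corin, the protease that activates the natriuretic peptides, went from 0.151, 0.115 and 0 CPM to 4.57, 4.05 and 5.24 CPM, and Npr3, their clearance receptor, from 0.241, 0.172 and 0.494 CPM to 3.39, 3.07 and 3.15 CPM. The peptide genes Nppa and Nppb, looked up after the values were seen, were at 0.572, 1.06 and 0.727 CPM at day 1 and 3.25, 3.84 and 3.49 CPM at day 3 and at 6.32, 7.96 and 6.05 CPM at day 1 and 20.04, 22.6 and 19.9 CPM at day 3. Adm, which encodes the vasodilator adrenomedullin, was the one that fell, from 9.72, 9.48 and 9.63 CPM to 1.47, 2.14 and 1.699 CPM (log2FC -2.42 ± 0.15). Of 13 tested genes of energy buffering, 11 rose and none had a log2FC below 0. Ckmt1, a mitochondrial creatine kinase, went from 1.51, 1.26 and 1.34 CPM to 9.51, 11.5 and 9.53 CPM, Ckb, the brain-type creatine kinase, from 5.87, 5.83 and 4.91 CPM to 19.7, 17.9 and 20.9 CPM, and Pfkm, the muscle phosphofructokinase, from 50.6, 48.3 and 45.9 CPM to 76.96, 77.7 and 79.3 CPM. Mb, which encodes myoglobin and was likewise looked up afterwards, had 3 counts in all at day 1 and 2.597, 2.31 and 3.17 CPM at day 3.

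**Figure D4:**
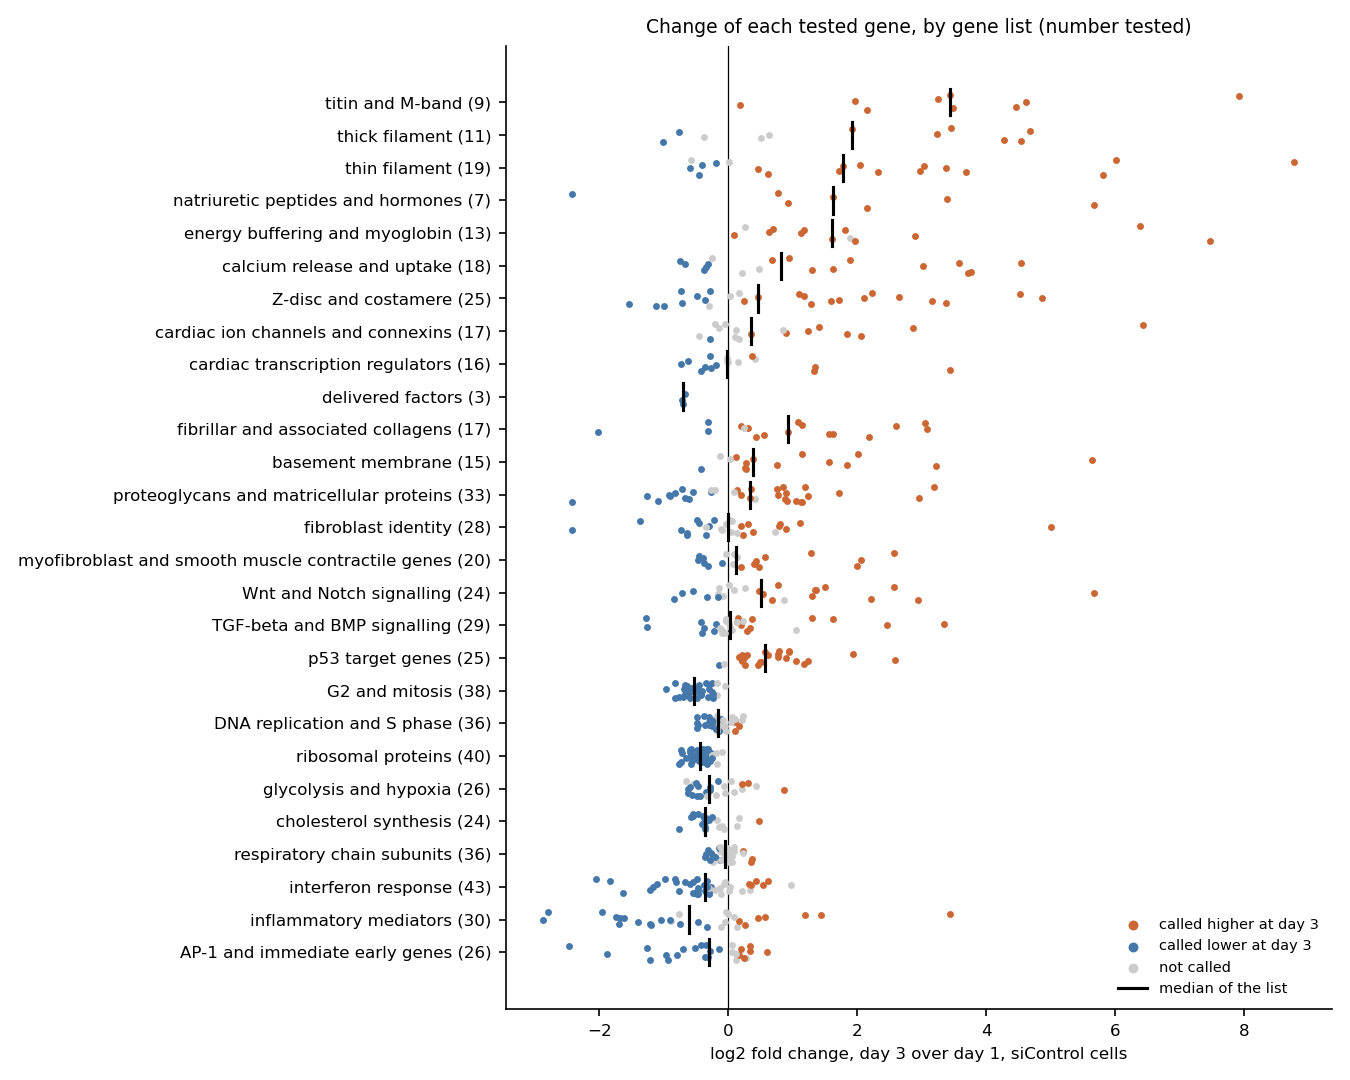
Log2 fold change of each tested gene in 27 gene lists (points, coloured by call) with the list's median (black bar). The sarcomere lists at the top reach past a log2FC of 4, the matrix lists spread to both sides, most p53 target genes lie right of 0, and mitosis and ribosomal protein genes lie left of 0 within a log2FC of -1.

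Matrix genes rose more often than they fell. Of 17 tested collagens, 13 rose and 3 fell (median log2FC 0.919). Col12a1, a collagen that coats fibril surfaces, had the largest gain in CPM of the genes named here, at 588, 579.9 and 574 CPM at day 1 and 2720, 2505 and 2672 CPM at day 3 (log2FC 2.18 ± 0.059, adjusted p = 6.1e-18). Col11a1, a minor fibrillar chain that controls fibril diameter, went from 17.5, 17.8 and 17.5 CPM to 151, 135 and 152 CPM (8.3-fold, adjusted p = 5.63e-19). Col8a1, a short-chain collagen of vessel walls, rose by 0.92 ± 0.037 on the log2 scale. Col5a2, a fibrillar chain, went from 3294, 3236 and 3204 CPM to 4081, 3853 and 4081 CPM. Col1a1, the main chain of type I collagen, also rose, from 2407, 2236 and 2184 CPM to 3188, 2882 and 3169 CPM (log2FC 0.44 ± 0.057). Col3a1, the collagen of loose tissue, fell from 51.8, 46.2 and 51.5 CPM to 14.3, 10.2 and 12.9 CPM, 4.03-fold.

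Basement membrane genes, which encode the sheet that surrounds muscle fibres, vessels and epithelia, were called higher in 12 of 15 and lower in 1 (median log2FC 0.386). Lama2, the laminin chain of the muscle basement membrane, stood out: 0.391, 0.632 and 0.756 CPM at day 1 and 29.1, 29.2 and 31.04 CPM at day 3, a rise of 49.7-fold (log2FC 5.64 ± 0.16, adjusted p = 1.03e-17). Lama5 went from 85.95, 82.4 and 84.2 CPM to 245, 249 and 248 CPM, and the collagen chain Col4a5 from 69.4, 72.4 and 67.3 CPM to 248, 247 and 257 CPM. Nid2, a linker of laminin and collagen, was among the most abundant risers at 2583, 2482 and 2455 CPM at day 1 and 4271, 4128 and 4254 CPM at day 3, against a day 0 mean of 68.9 CPM. Nid1, its relative, was measured at 834, 798 and 787 CPM and 845, 799.8 and 821 CPM and was not called. It was called higher in the fit to the 6 compared libraries alone (log2FC 0.088, adjusted p = 0.00166).

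Among proteoglycans and matricellular proteins, 18 of 33 rose and 11 fell (median log2FC 0.341). Fn1, which encodes fibronectin, was at 2144, 2095 and 2069 CPM at day 1 and 3926, 3822 and 3892 CPM at day 3 (log2FC 0.88 ± 0.046), and Sparc, a collagen-binding protein, at 1190, 1166 and 1165 CPM at day 1 and 2448, 2338 and 2520 CPM at day 3 (log2FC 1.05 ± 0.040, adjusted p = 2.91e-15). Fbln5, an elastic fibre protein, and Igfbp7 rose as well, by log2FCs of 0.91 ± 0.046 and 1.23 ± 0.063. Dcn, the small proteoglycan decorin, fell from 41.8, 41.4 and 41.8 CPM to 8.05, 7.31 and 7.97 CPM (5.37-fold), and Thbs1 and Cyr61, 2 matricellular genes known to respond to serum and tension, fell by log2FCs of -0.89 ± 0.051 and -0.83 ± 0.042.

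Matrix proteases and their controls went both ways, with 11 of 28 higher and 12 lower (12 and 11 with library totals alone), and the median log2FC of -0.068 turned to 0.079. Mmp3, the protease stromelysin, had the largest fall among called genes with a mean of at least 5 CPM over the 6 libraries: 22.04, 18.96 and 18.6 CPM at day 1 and 0.536, 0.572 and 0.666 CPM at day 3, a drop of 33.3-fold (log2FC -5.06 ± 0.13, adjusted p = 2.91e-18). Its day 0 mean was 528 CPM. Mmp13, a collagenase looked up after the values were seen, was at 7.01, 6.81 and 7.298 CPM at day 1 and 0.452, 0.297 and 0.689 CPM at day 3. Plat, a plasminogen activator, rose from 27.4, 29.9 and 26.6 CPM to 74.7, 73.4 and 73.5 CPM (log2FC 1.40 ± 0.062). Bmp1, the protease that trims procollagens, rose from 106, 100.2 and 101 CPM to 253, 237 and 254 CPM. Serpinh1, the collagen chaperone, was measured at 1568, 1511 and 1514 CPM and 1543, 1474 and 1586 CPM and was not called. It was called higher in the fit to the 6 compared libraries alone (log2FC 0.064, adjusted p = 0.0165).

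Genes of fibroblast identity showed no common direction, with 9 of 28 higher and 10 lower and a median log2FC of 0.0013 (13 and 9 with library totals alone). Vim lost the most CPM of any named gene, from 9359, 9294 and 9179 CPM to 6046, 5876 and 5979 CPM (log2FC -0.64 ± 0.040). Fap, a protease of activated fibroblasts, fell from 7.68, 7.36 and 7.79 CPM to 1.64, 1.25 and 1.42 CPM, and Twist1, a mesenchymal transcription factor, fell by 0.73 on the log2 scale. Pdgfrb, a growth factor receptor of fibroblasts and pericytes, rose from 63.1, 64.9 and 63.5 CPM to 109, 112 and 112 CPM (log2FC 0.80 ± 0.041). Ddr2, a collagen receptor used as a cardiac fibroblast marker, was at 249, 243 and 246 CPM at day 1 and 257, 248 and 248 CPM at day 3 and was not called. It was called higher in the fit to the 6 compared libraries alone (log2FC 0.0905, adjusted p = 0.00294).

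The contractile apparatus of myofibroblasts and smooth muscle was called higher in 9 of 20 genes and lower in 7 (median log2FC 0.118). Acta2 went from 2077, 2006 and 1986 CPM to 2798, 2750 and 2854 CPM (log2FC 0.47 ± 0.060), and Cnn1 and Lmod1, both of differentiated smooth muscle, from 1.33, 1.75 and 1.31 CPM to 9.12, 8.86 and 8.11 CPM and from 3.94, 4.74 and 4.19 CPM to 18.6, 13.9 and 18.9 CPM. Some non-muscle cytoskeletal genes fell and others did not. Actb was at 5989, 5821 and 5717 CPM at day 1 and 3270, 3137 and 3285 CPM at day 3 (log2FC -0.85 ± 0.042), Actg1 fell by 0.80 and Flna by 0.47 on the log2 scale. Myh9 fell by 0.32 on that scale, while Myl9, a light chain of smooth muscle and non-muscle cells, rose (log2FC 0.20 ± 0.063). Myl6, the non-muscle light chain, and Myh10, a non-muscle heavy chain, were not called with TMM over all 18 libraries (log2FCs of 0.14 ± 0.090 and 0.087 ± 0.041). Both were called higher with library totals alone and with DESeq2 (adjusted p = 0.0395 and 0.00225). They were also called higher in the fit to the 6 compared libraries alone (adjusted p = 6.14e-11 and 3.88e-07). Per kilobase, all actin genes together went from between 5120 and 5340 CPM to between 3590 and 3740 CPM.

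Signalling genes were mixed. Of 29 TGF-beta and BMP genes 10 rose and 7 fell (17 and 5 with library totals alone), with a median log2FC of 0.024. Bmp6 and Bmp4, ligands of the BMP branch, rose from 4.22, 4.28 and 4.59 CPM to 21.4, 22.6 and 27.9 CPM and from 4.22, 5.52 and 4.25 CPM to 13.3, 15.1 and 14.7 CPM. Grem1, a secreted BMP blocker, fell from 941, 1012 and 971 CPM to 405, 420.4 and 403 CPM (log2FC -1.25 ± 0.043), and Inhba, which encodes activin A, fell by 1.27 on the log2 scale. Of 24 Wnt and Notch genes 12 rose and 5 fell (median log2FC 0.513). Wif1, a secreted Wnt inhibitor, was at 0.512, 0.345 and 0.407 CPM at day 1 and 22.4, 20.2 and 22 CPM at day 3, a rise of 50.9-fold, and Rspo3, an enhancer of Wnt signals, rose by 1.29 ± 0.057 on the log2 scale. Axin2, a common readout of Wnt activity, fell from 74.1, 72.98 and 72.9 CPM to 41.9, 40.4 and 40.9 CPM (log2FC -0.84 ± 0.055). Notch3 rose from 22.9, 23.5 and 22.2 CPM to 62.4, 67.4 and 63.5 CPM.

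Genes of mitosis fell. Of 38 tested G2 and mitosis genes 35 fell (30 with library totals alone) and none had a positive log2FC, with a median log2FC of -0.525, and their summed level went from between 6840 and 6870 CPM to between 4680 and 4760 CPM. Mki67, the proliferation marker Ki-67, was at 489.6, 474 and 493 CPM at day 1 and 277, 271 and 273 CPM at day 3 (log2FC -0.83 ± 0.045, adjusted p = 1.04e-12). Foxm1, the transcription factor that drives mitotic genes, went from 144, 138 and 149 CPM to 75.5, 73.3 and 71.96 CPM (log2FC -0.97 ± 0.055), and the spindle genes Tpx2 and Kif20a fell by 0.68 and 0.71 on that scale. Cdk1, the kinase that starts mitosis, was not called, at 272, 269 and 265 CPM and 236, 239 and 242 CPM, and it was called lower in the fit to the 6 libraries alone (log2FC -0.108, adjusted p = 3.61e-04). Each fall stayed under 2-fold.

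The count for DNA replication turned with the scaling: 18 of 36 genes were lower and 3 higher with TMM (median log2FC -0.16), and 8 lower and 9 higher with library totals alone (-0.013). Uhrf1, Pole and Mcm10, which copy DNA or its methylation, fell by log2FCs of -0.47 ± 0.037, -0.49 ± 0.053 and -0.48 ± 0.048. Mcm6 was at 365, 379.8 and 373 CPM at day 1 and 402, 394 and 408 CPM at day 3, a small rise that was lost without single libraries (adjusted p = 0.053 to 0.0591). Pcna, the sliding clamp of replication, was at 366, 376 and 371 CPM at day 1 and 429, 431 and 426 CPM at day 3. It was not called with TMM over all 18 libraries and was called higher with DESeq2 (adjusted p = 0.0303). Pcna was also called higher in the fit to the 6 compared libraries alone (log2FC 0.269, adjusted p = 9.02e-14).

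The element known from promoters of mitotic genes, the cell cycle homology region (CHR, letters TTTGAA), stood within 250 bases before the start of 9 of 29 mitosis genes called lower that had a window (31.0%), against 1310 of 10511 tested genes (12.5%), and CCAAT stood in 21 (72.4%) against 4267 (40.6%). Both strands were searched, and the shares are descriptions for the reason given above. The Mki67 site is shown with the CHR in capitals, because Mki67 stands for the list above.
Mki67 (CHR, chr7:135716447-135716502, minus strand of GRCm38.p6, 98 bases before the start): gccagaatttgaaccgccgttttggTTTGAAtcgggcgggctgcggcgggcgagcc
A second match lay 116 bases before the start of the same gene.

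Targets of p53, the transcription factor that answers DNA damage and stress, rose almost throughout. Of 25 tested, 23 rose and 1 fell, with a median log2FC of 0.577, and their sum went from between 2810 and 2940 CPM to between 4340 and 4570 CPM. Cdkn1a, the cell cycle inhibitor p21, was at 453, 486 and 438 CPM at day 1 and 927, 979 and 934 CPM at day 3 (log2FC 1.05 ± 0.052, adjusted p = 2.53e-13). Trp53inp1, Eda2r and Btg2, which encode a stress protein, a death receptor and an antiproliferative factor, rose by log2FCs of 1.23 ± 0.074, 0.94 ± 0.056 and 0.77 ± 0.040. Mdm2, the ligase that degrades p53, and Gdf15, a secreted stress signal, were looked up after the values were seen and stood at 295, 297 and 299 CPM at day 1 and 446, 475 and 441 CPM at day 3 and at 3.28, 3.62 and 3.37 CPM at day 1 and 12.7, 13.5 and 13.1 CPM at day 3. Trp53 itself, also on the list, was the member that fell with TMM (log2FC -0.15 ± 0.040) and it was not called with DESeq2 (log2FC -0.09, adjusted p = 0.0787). Plk2 was the gene of the list without a call. Of 10 cell cycle inhibitor and retinoblastoma genes, 4 rose and 4 fell, with a median log2FC of 0.019 (5 and 2 with library totals alone): Cdkn1b and Rb1 rose with Cdkn1a, and Cdkn2c and Cdkn3 fell. Cdkn2a was at 452, 456 and 438 CPM and 462, 471 and 474 CPM, not called with TMM over all 18 libraries. It was called higher with DESeq2 (log2FC 0.123, adjusted p = 0.00899) and in the fit to the 6 compared libraries alone (log2FC 0.126, adjusted p = 1.45e-05).

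**Figure D5:**
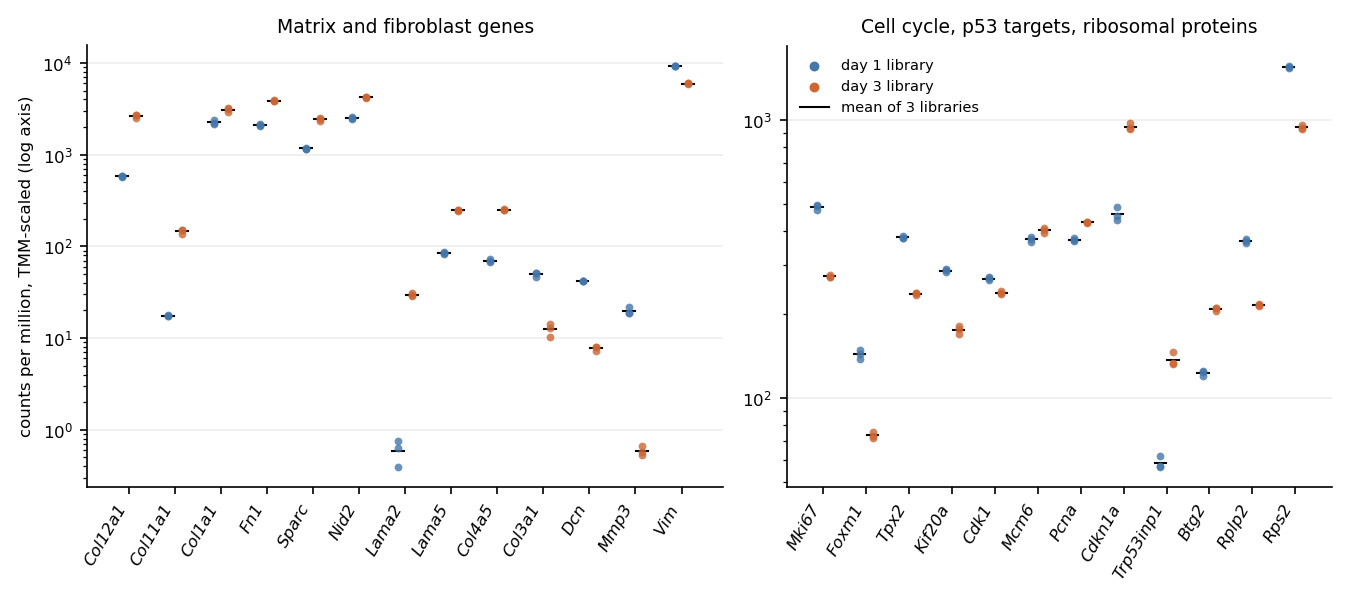
CPM of matrix and fibroblast genes (left) and of cell cycle, p53 target and ribosomal protein genes (right) in each siControl library (log axes, points are libraries, bars are means of 3). Col12a1, Col11a1 and Lama2 rise and Mmp3 and Dcn fall with no overlap, and Cdkn1a rises while Mki67 and Foxm1 fall by less than 2-fold.

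Ribosomal protein genes fell by a modest and shared amount. Of 40 tested, 35 fell (28 with library totals alone) and none had a positive log2FC (median -0.433), and their sum went from between 24800 and 25300 CPM to about 18000 CPM in each day 3 library. Rplp2 and Rps2 went from 366, 374 and 362 CPM to 218, 216 and 215 CPM and from 1547, 1570 and 1533 CPM to 962, 939.5 and 929 CPM (log2FCs of -0.76 ± 0.039 and -0.72 ± 0.049). Rpl19 was not called with TMM over all 18 libraries (log2FC -0.17 ± 0.081). It was called lower in the fit to the 6 compared libraries alone (log2FC -0.11, adjusted p = 5.82e-05). Eef1a1, the elongation factor that brings amino acids to the ribosome, fell by 0.36 on the log2 scale.

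No gene of glycolysis or of the respiratory chain changed by 2-fold. In the glycolysis and hypoxia list 13 of 26 were lower and 3 higher (median log2FC -0.298): Ldha and Pkm, the last steps of glycolysis to lactate, went from 843, 857 and 823 CPM to 553, 539.6 and 554 CPM and from 2497, 2484 and 2456 CPM to 1635, 1644 and 1639 CPM, and Egln3, an oxygen sensor, rose from 16.1, 14.7 and 15.4 CPM to 28.2, 26.3 and 29.2 CPM. Of 36 respiratory chain subunits, 10 fell and 3 rose with TMM (median log2FC -0.057) and 4 fell and 10 rose with library totals alone (0.09), so no direction can be given for them. Of 24 fatty acid genes 13 rose and 6 fell (median log2FC 0.167), with Fabp3, the fatty acid carrier of heart muscle, at 4.696, 5.72 and 5.06 CPM at day 1 and 22.5, 23.5 and 23.3 CPM at day 3 (log2FC 2.16 ± 0.14) and Acadm, a medium-chain dehydrogenase, lower by 0.69 on the log2 scale. Among 11 metabolic coactivators and receptors 5 rose and 2 fell (median log2FC 0.272), and Esrra, a driver of mitochondrial genes, rose by 0.27 ± 0.061. Cholesterol synthesis genes fell in 17 of 24 and rose in 1 (15 and 2 with library totals alone; median log2FC -0.361), with Cyp51 at 261, 270.3 and 245 CPM at day 1 and 149, 156 and 154 CPM at day 3. Dhcr7, which makes cholesterol in the last step, was the gene that rose, from 6.77, 8.36 and 7.15 CPM to 10.5, 10.3 and 10.4 CPM.

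Immediate early and inflammatory genes fell more often than they rose with TMM over all 18 libraries, as did all tested genes (32.3% lower and 22.8% higher). With TMM over the 6 compared libraries alone, 4173 of all tested genes were lower and 4224 higher. Among the immediate early genes, which include the AP-1 factors, 15 of 26 were lower and 6 higher (median log2FC -0.30). With library totals alone 12 were lower and 10 higher (median log2FC -0.153). Nr4a3, an orphan nuclear receptor, was at 25.1, 25.95 and 24.5 CPM at day 1 and 4.21, 4.54 and 4.82 CPM at day 3, and Egr1 went from 129, 126 and 127 CPM to 57.2, 49.9 and 53.02 CPM (log2FCs of -2.47 ± 0.11 and -1.25 ± 0.057). Jun and Jund rose, by log2FCs of 0.33 ± 0.046 and 0.33 ± 0.043. Of 30 inflammatory mediators 15 fell and 7 rose (median log2FC -0.61): C3, the central complement protein, went from 112, 116 and 109.6 CPM to 33.1, 37.1 and 35.4 CPM, Csf1, a macrophage growth factor, from 543, 544 and 514 CPM to 232, 227 and 232 CPM, and Ptgs2, a prostaglandin synthase, from 75.7, 87.7 and 84.3 CPM to 34.02, 38.4 and 35.1 CPM. Ptges, the enzyme downstream of it, rose from 2.23, 2.07 and 2.24 CPM to 5.96, 6.19 and 5.51 CPM.

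Interferon response genes fell in 27 of 43 and rose in 5 (19 and 6 with library totals alone), with a median log2FC of -0.362. The antigen-presenting gene H2-K1 was at 154, 169.8 and 170.2 CPM at day 1 and 116, 115 and 108 CPM at day 3, while Tap1 and Irf1 rose, by log2FCs of 0.62 ± 0.063 and 0.55 ± 0.056. Of 30 genes of the unfolded protein and integrated stress responses 13 fell and 10 rose with TMM (median log2FC -0.069) and 4 fell and 13 rose with library totals alone (0.077), so their direction turned with the scaling. Vldlr, a lipoprotein receptor, rose from 37.7, 36.1 and 38.5 CPM to 145, 147 and 149 CPM, and Psat1, an enzyme of serine synthesis, fell from 339, 343 and 345 CPM to 174, 172 and 177 CPM. NRF2 antioxidant genes fell in 15 of 25 and rose in 4 (11 and 7 with library totals alone; median log2FC -0.288), with G6pdx and Txnrd1 lower by 0.61 and 0.45 on the log2 scale and Gstm2, a glutathione transferase, higher, at 16.9, 16.4 and 18.9 CPM and 34.6, 34.3 and 33.8 CPM. Genes of glycosaminoglycan synthesis and turnover, the pathway of Chst7, fell in 13 of 31 and rose in 6 with TMM (median log2FC -0.057) and fell in 8 and rose in 11 with library totals alone (0.09). Within that list Hyal1, a hyaluronidase, rose from 2.62, 2.53 and 2.36 CPM to 10.3, 10.5 and 10.4 CPM and Has2, a hyaluronan synthase, fell from 4.94, 4.63 and 3.52 CPM to 0.9599, 0.8903 and 0.918 CPM. Chst7 fell (log2FC -0.58 ± 0.11, adjusted p = 9.53e-05), and its relative Chst3 rose from 30.2, 25.1 and 29.95 CPM to 54.5, 45.8 and 52.4 CPM.

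Outside these lists, the genes with the largest rises at a mean of at least 5 CPM over the 6 libraries were Colq, the collagen tail that anchors acetylcholinesterase at muscle synapses (0.422, 0.172 and 0.436 CPM to 16.01, 13.95 and 14.7 CPM), Aldh1l1, a folate enzyme (0.482, 0.603 and 0.407 CPM to 13.2, 16.5 and 13.1 CPM), and Rrad, a small GTPase of muscle that restrains calcium channels (5.54, 3.97 and 4.1 CPM at day 1 and 88.2, 83.8 and 91.9 CPM at day 3, log2FC 4.28 ± 0.11). The largest falls outside the lists were in Itgb7, a leukocyte integrin chain (8.28, 10.3 and 9.42 CPM to 1.89, 1.57 and 1.58 CPM), Ch25h, which makes an oxysterol (43.6, 42.9 and 38.96 CPM to 9.68, 7.36 and 9.64 CPM), Dlx2, a homeobox gene (29.7, 30.3 and 31.4 CPM to 7.54, 7.69 and 8.495 CPM), and Pde3a, a phosphodiesterase (16.1, 15.5 and 14.8 CPM to 4.799, 4.11 and 4.55 CPM). Hsp90ab1, an abundant chaperone, fell from 2093, 2036 and 2043 CPM to 1153, 1104 and 1147 CPM, and Eef1a1 was the gene after Vim, Actb and Thbs1 with the largest loss of CPM among those named. In none of these genes did the days overlap, which was a condition of choice for the largest rises and falls. Most of the largest risers were near 0 before induction: the day 0 means were 0.0302 CPM for Tnnt3, 0.0154 for Actc1, 0.0149 for Wif1, 0.0597 for Lama2, 0.127 for Colq, 0.0154 for Mybpc3, 0.0154 for Smpx, 0.195 for Aldh1l1 and 0.797 for Rrad, and Mybph had 0 counts. Those of the fallers were 41.96 CPM for Itgb7, 18.3 for Ch25h, 18.3 for Dlx2, 11.4 for Pde3a, 169 for Dcn, 22.1 for Adm and 59.6 for Col3a1, and Nr4a3 stood at 0.592 CPM at day 0, below both later days.

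Markers of cells other than cardiomyocytes and fibroblasts were checked in the same fit. Skeletal muscle regulators and junction genes rose in 5 of 6 tested, and their sum over 18 measured genes went from between 54.2 and 57.8 CPM to between 133 and 144 CPM, most of it Des. Of its defining regulators Myog was at 0.621, 0.721 and 0.712 CPM at day 3, and 6 members had 0 counts in all 6 libraries. Smooth muscle markers rose in 6 of 9 and fell in 1, with sums from 483 to 515 CPM up to 655 to 660 CPM. These sums move with the contractile lists, with which they share genes such as Des, Cnn1 and Lmod1, and their part in those results was not tested. Epicardial and mesothelial markers rose in 3 of 4. Msln, which encodes mesothelin, held most of their CPM at 48.6, 52.1 and 49.3 CPM at day 1 and 96.5, 103 and 99.4 CPM at day 3, with sums from 49.6 to 52.9 CPM up to 99.3 to 106 CPM. Upk3b had the larger log2FC (4.49 ± 0.52, against 0.99 ± 0.057 for Msln), at 0.1204, 0.115 and 0.116 CPM at day 1 and 2.004, 2.904 and 3.17 CPM at day 3, and the call on Wt1 (log2FC 2.05 ± 0.70, adjusted p = 0.017) was lost without replicate 3 of day 1 (adjusted p = 0.0855) or of day 3 (0.0764). Chondrocyte and osteoblast markers rose in 3 of 7 and fell in 2, and Col10a1, a collagen of hypertrophic cartilage, was at 157, 150.1 and 146 CPM at day 1 and 201, 226 and 219.9 CPM at day 3 against a day 0 mean of 0.505 CPM.

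Macrophage and leukocyte markers rose in 3 of 8 with sums from 19.5 to 21.9 CPM up to 28.8 to 30.7 CPM, beside the inflammatory genes that fell, and their part in that result was not tested. Endothelial markers rose in 1 of 5 and fell in 1 with sums of 5.18 to 6.60 and 4.63 to 4.94 CPM, adipocyte markers rose in 2 of 4 and fell in 1 (19.3 to 23.4 and 38.1 to 42.0 CPM), and neural markers rose in 2 of 4 (654 to 687 and 657 to 689 CPM, nearly all of it Nes, which was not called). Neither of the 2 tested epithelial markers, Krt8 and Krt18, was called by edgeR over all 18 libraries, with sums of at most 1.11 CPM and unadjusted p of 0.0366 and 0.112. Krt8 was called lower without replicate 2 of day 1 (log2FC -1.08, adjusted p = 0.0391). Of 5 RNA quality genes 1 rose and 2 fell: the nuclear RNAs Malat1 and Neat1 fell by 0.47 and 0.95 on the log2 scale, and the rise of Rn45s (log2FC 0.66 ± 0.28, adjusted p = 0.0477) was not called with DESeq2 (adjusted p = 0.0905) or without single libraries (0.071 to 0.17). Rmrp, a non-coding RNA that poly-A selection should remove, was at 0.542, 1.32 and 0.233 CPM at day 1 and 1.299, 1.02 and 2.62 CPM at day 3. It was not called with TMM over all 18 libraries (log2FC 1.23 ± 0.55, adjusted p = 0.0616). It was called higher with library totals alone (log2FC 1.37, adjusted p = 0.0249) and in the fit to the 6 compared libraries alone (1.29, adjusted p = 0.00132). The same held without replicate 2 of day 1 (2.09, adjusted p = 0.0109) or of day 3 (1.49, adjusted p = 0.0364). Over the alternatives, 0 to 3 of these genes were called higher.

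The same interval was measured in the siChst7 arm, whose 6 libraries of days 1 and 3 are separate from the siControl ones. Of the 7612 genes called in siControl, 6781 (89.1%) had the same sign in siChst7, and across the 13802 tested genes, which are not independent replicates, the 2 sets of log2FCs had a Pearson r of 0.786 and a Spearman rho of 0.699. The difference between the 2 changes was called for 3926 genes (28.4%), 2112 with the larger log2FC in siChst7 and 1814 with the larger in siControl. The siChst7 day 3 libraries were less alike, with 21.9 to 57.5 for the same chi-square ratio, and held 1.96%, 0.605% and 0.654% Rn45s. Without replicate 1, 2 or 3 of that group the count was 3057, 5580 or 3231. The difference also ran with gene length (Spearman rho of -0.271 across genes, with a median length of 2009.5 bases for genes with the larger log2FC in siChst7 and 3789 bases for the others), and the part of RNA quality and length in it was not tested.

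Among the sarcomere genes that passed the test of the difference, the larger log2FC lay in siChst7 for 3 of 19 thin filament, 2 of 11 thick filament and 2 of 25 Z-disc and costamere genes. It lay in siControl for 1 thin filament gene, 7 Z-disc and costamere genes and 2 of 9 titin and M-band genes. Over all 13802 tested genes, 3926 (28.4%) passed that test, with the larger log2FC in siChst7 for 2112 and in siControl for 1814. Tnnt2 had log2FCs of 2.98 ± 0.072 in siControl and 2.88 ± 0.071 in siChst7, and Actc1 5.81 ± 0.18 and 6.24 ± 0.17, with no call on the difference (adjusted p = 0.472 and 0.302). Myl4 rose less in siControl (4.27 ± 0.12 against 5.45 ± 0.13, adjusted p of the difference 7.29e-05), as did Myl7 (1.92 ± 0.16 against 3.36 ± 0.16, adjusted p = 1.22e-04), Casq2 (3.02 ± 0.072 against 4.01 ± 0.077, adjusted p = 2.15e-06) and Acta2 (0.47 ± 0.060 against 1.08 ± 0.061, adjusted p = 5.32e-05). The delivered factors fell less in siControl, Tbx5 by -0.71 ± 0.048 against -1.15 ± 0.048 (adjusted p = 1.23e-04) and Mef2c by -0.70 ± 0.047 against -1.20 ± 0.048 (adjusted p = 3.44e-05).

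Several matrix genes gained more in siControl. Fn1 rose by 0.88 ± 0.046 in siControl and 0.53 ± 0.046 in siChst7 (adjusted p of the difference 4.92e-04), Sparc by 1.05 ± 0.040 and 0.51 ± 0.040 (adjusted p = 3.31e-06), and Pdgfrb by 0.80 ± 0.041 in siControl beside 0.0055 ± 0.040 in siChst7 (adjusted p = 2.39e-08). Col12a1 and Lama2 had no call on the difference (adjusted p = 0.789 and 0.101). Of the basement membrane list 7 of 15 genes passed the test of the difference, all with the larger log2FC in siControl. In the ribosomal protein list 31 of 40 members passed it, all with the larger log2FC in siChst7, where 20 rose and 11 fell, against 35 falls in siControl.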

How the data were processed

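Gene counts were deposited by the authors as 1 table of raw read counts per gene for 18 libraries. Reads had been aligned and counted with HISAT2, Subread and featureCounts on mm10, per the submitters' processing notes, while versions, the strand setting and the handling of multiply mapping reads are not stated in them. Paralogs that share sequence, such as the actins, could exchange reads. Groups were taken from the labels. With edgeR 4.0.16 (R 4.3.3), filterByExpr kept 13802 genes, libraries were scaled by TMM, and 1 quasi-likelihood model was fitted to 6 groups of 3 (12 residual degrees of freedom), with p-values adjusted over all tested genes and SE computed from log2FC and F. The scripts were tested on simulated data. DESeq2 1.42.0 and other scalings, filters and sample sets were alternatives. Of the table's symbols 23591 (96.2%) matched RefSeq (GRCm38.p6), which gave promoters and coordinates of starts. Named genes were taken from the 10 largest changes each way on the log2 scale (mean of at least 5 CPM, days not overlapping) and in CPM, from each of 35 gene lists (up to 4 called members of smallest p, up to 2 of the rarer direction, and the most abundant uncalled member), the striated families, the siRNA target and delivered factors, and the 4 largest differences between arms each way. Markers come from 10 further lists. Lists and comparisons were chosen with earlier results of these data known. Replicate numbers did not pair the samples. Per-library depth is given in the text. The p-values rest on the spread between replicates over all 18 libraries, the siChst7 day 3 group included. In the fit to the 6 compared libraries alone, 8397 of 12931 tested genes were called.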

Additional observations from a re-analysis of the deposited data

Results flagged for a closer look

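The change between day 1 and day 3 differed between the siChst7 and siControl arms for 3926 genes by the edgeR interaction test. The following values are the log2FC in siChst7 minus that in siControl, each past the same test among the genes named for their difference. Chst7, the siRNA target, differed by 2.1, with 40.4, 37.2 and 35.3 CPM at day 1 and 25.6, 23.8 and 25.95 CPM at day 3 in siControl. Wbp5, a small gene of the TCEAL family, differed by 1.49, Snhg3, a host RNA for small nucleolar RNAs, by 1.46, and Actg2, the smooth muscle gamma-actin, by 1.46. The differences were -1.26 for Clu, the secreted chaperone clusterin, -1.24 for Acacb, an acetyl-CoA carboxylase, -1.19 for Adamtsl2, a matrix glycoprotein, and -1.18 for Alcam, an adhesion molecule. The spread of the siChst7 day 3 libraries, their Rn45s and the length trend move with these differences, and their part was not tested.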

How the results depend on the processing

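The median log2FC of all tested genes, -0.047 with TMM over all 18 libraries, was 0.011 with DESeq2-type size factors, 0.053 with upper quartile scaling, 0.099 with library totals alone, 0 with no filter on low counts, 0.0075 at a mean of at least 5 CPM, 0.012 with DESeq2, 0.011 in the 6 compared libraries alone and 0.0083 in the 9 siControl libraries, and ran from -0.050 to -0.043 without single libraries. Library totals alone gave 4833 higher and 2599 lower genes. A test against a fold of 1.5 called 1197 genes, 820 higher and 377 lower, and 49 for the difference between arms, by its own stricter threshold. With the replicate block the calls were 7502 (3105 higher, 4397 lower) and 3717 for the difference. The numbers did not pair the samples, with correlations of 0.00111, 0.0062 and 0.0263. Without single libraries 6949 to 7114 genes were called, 2845 to 2956 higher and 4093 to 4181 lower, and 3057 to 5580 for the difference. Etfa and Sdha, not called with TMM (log2FC of -0.014 and -0.044), were called higher with library totals alone (0.133 and 0.103). For the 282 named genes tested under 16 alternatives, 4166 values kept their status, 159 lost the call and 122 gained one. A kept status means a call in the same direction, or no call in either fit, where the sign could turn. The cause was not tested.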
